A study of Mus musculus with 32 samples.

Results

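Stable C/EBPβ peaks in closed chromatin are the C/EBPβ ChIP-seq intervals of mouse liver that stood in both the dexamethasone and the vehicle peak list and touched no DNase I hypersensitive site (DHS) of either condition. They were chosen by list membership: an identifier had to occur in both C/EBPβ lists, and the interval had to share not even 1 bp with any DHS of either DHS list. Of the 27793 C/EBPβ intervals in the merged set, 20313 were stable in this sense, and 2125 of those were closed (10.5%, 95% Wilson interval 10 to 10.9). The other 18188 stable peaks overlapped a DHS and are called open below. Closed here means that no DHS was listed there, and neither a faint DNase signal nor accessibility in a minority of liver cells can be told apart from none in lists made from whole tissue.

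The material was liver of male C57BL/6 mice, 8 weeks old, all adrenalectomized, which removes the main source of endogenous glucocorticoid. The dexamethasone groups received 1 mg/kg of this synthetic glucocorticoid as a cyclodextrin complex, and the vehicle groups received cyclodextrin in saline, each in 300 ul, with liver taken after 1 h according to the series' design text. C/EBPβ ChIP-seq, DNase-seq and glucocorticoid receptor (GR) ChIP-seq each had 2 dexamethasone and 2 vehicle samples, 12 of the 32 samples of the series. The deposited lists hold 1 set of mm9 positions per assay and condition (25392 dexamethasone and 22714 vehicle C/EBPβ peaks, 63473 dexamethasone and 56794 vehicle DHS) and 11666 GR peaks without a treatment in the list's name. They carry no read count, height or replicate, so the read depth is unknown, no difference between treatments has a replicate check, and the p-values below compare classes of intervals. Whether animals were pooled is not given in the sources used here, and the intervals offer no marker of cell type to check the tissue by.

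C/EBPβ is a basic leucine zipper transcription factor that is abundant in hepatocytes and takes part in the control of acute-phase and metabolic genes. GR is a hormone-activated nuclear receptor that, once bound by glucocorticoid, enters the nucleus and binds DNA mostly where chromatin is already accessible. DNase I cuts DNA that is not wrapped or covered, so a DHS marks a stretch that is accessible in enough cells to stand out. The series' title states the question as whether C/EBP keeps chromatin accessible and helps GR to its sites. C/EBPβ peaks outside DHS are the places where that binding and that accessibility were not listed together.

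GR was almost absent from stable C/EBPβ peaks in closed chromatin. A GR peak overlapped 14 of the 2125 closed peaks (0.659%, 0.393 to 1.1) and 5847 of the 18188 open ones (32.1%, 31.5 to 32.8). Over all 20313 stable peaks the share was 28.9%, and over the whole merged set of C/EBPβ peaks it was 26.2%. The odds ratio of closed over open was 0.014 (95% Woolf interval 0.00827 to 0.0237; two-sided Fisher's exact test, p = 5.17e-305, adjusted p = 3.62e-304 by Benjamini-Hochberg over 7 tests). The closed share was the lower one on 20 of 20 chromosomes, Y not counted. GR itself lay in DHS nearly everywhere: 11286 of its 11666 peaks (96.7%) overlapped a DHS of either list, so a low share outside DHS is to a large part built into the comparison.

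The closed peaks can be set against other closed peaks, where DHS overlap is absent on both sides. Among closed peaks, GR overlapped 14 of the 2125 stable ones (0.659%), 21 of the 755 found in the dexamethasone list only (2.78%, 1.83 to 4.21) and 0 of the 667 found in the vehicle list only, which allows a share of up to 0.45%. Stable closed peaks thus had GR less often than dexamethasone-only closed peaks (odds ratio 0.232, 0.117 to 0.458; two-sided Fisher's exact test, p = 2.3e-05, adjusted p = 3.22e-05). Against vehicle-only closed peaks the share was 0.659 percentage points higher (95% Newcombe interval 0.0274 to 1.1; Fisher p = 0.0292, adjusted p = 0.0341). That last call rests on few peaks and was lost under 3 alternatives, among them autosomes only (Fisher p = 0.0513, adjusted p = 0.0513). In open chromatin, the shares with GR were 32.1% of stable, 31.8% of dexamethasone-only and 2.13% of vehicle-only peaks.

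**Figure D1:**
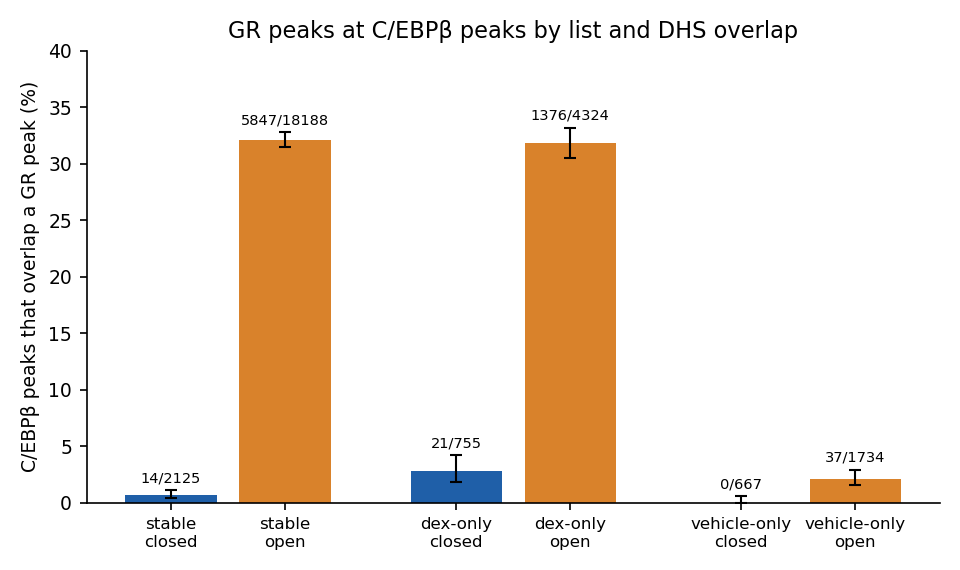
Share of C/EBPβ peaks that overlap a GR peak (%, vertical axis) for peaks of both lists (stable), of the dexamethasone list only and of the vehicle list only, outside DHS (closed, blue) and in DHS (open, orange), with 95% Wilson intervals as bars and counts above. The stable closed bar stands at 0.659% and the stable open bar at 32.1%.

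The 14 GR-bearing members lay on 10 chromosomes, 4 of them on chromosome 5. Their GR and C/EBPβ centres were a median of 15.5 bp apart (quartiles 9.12 and 29.9 bp), against 18 bp (quartiles 8 and 36.2 bp) at the 5847 open stable peaks with GR. The GR centre was within 20 bp in 8 of the 14 and in 3159 of the 5847 (54%). Where GR did meet a closed stable peak, the pair was spaced about as closely as in open chromatin. The 14 pairs leave a wide interval (32.6 to 78.6% for the share within 20 bp), and the difference was not tested. Pairs were picked by overlap of short intervals, which caps the offset in both classes, so part of this likeness is built in. At dexamethasone-only closed peaks with GR the median was 19 bp. None of the 14 GR peaks touched a DHS.

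The closest of these pairs, by the rule for named regions, was at chr5:24507243-24507396 (mm9, positions as in the lists), with centres 0.5 bp apart and the nearest DHS 8793 bp away. At chr14:121582455-121582608 the centres were 2.5 bp apart, and the nearest DHS was 6928 bp away in the vehicle list but 24197 bp away in the dexamethasone list. At chr10:127582118-127582269 they were 4.5 bp apart, and a DHS lay 4321 bp off. These 3 members stood well clear of any DHS. The next 2, chr5:123652118-123652268 and chr5:125804429-125804592, had centres 9 and 9.5 bp apart and lay only 142 and 376 bp from a DHS. The remaining 9 had offsets of 11.5 to 57 bp. All 14 lay between 142 and 9924 bp from a DHS.

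Seen from GR, 380 of its 11666 peaks (3.26%) lay outside both DHS lists. A C/EBPβ peak of any kind overlapped 34 of those 380 (8.95%, 6.47 to 12.2), namely a stable closed one at 14 and a dexamethasone-only closed one at 20. Among the 11286 GR peaks in a DHS, a C/EBPβ peak overlapped 7241 (64.2%, 63.3 to 65). Of the merged set of C/EBPβ peaks, 87.2% lay in DHS, so a lower share outside DHS is partly built into this comparison too. The difference was not tested.

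Most closed stable peaks had a DHS within 10 kb, but fewer had one within 1 kb. The gap to the nearest DHS of either list had a median of 4316 bp (quartiles 1234 and 12497 bp) and ranged from 1 to 495675 bp. A DHS lay within 1 kb of 479 members (22.5%) and within 10 kb of 1486 (69.9%). In finer steps, 107 were less than 150 bp from a DHS, 188 were 150 to 500 bp away, 184 were 500 bp to 1 kb away, 1007 were 1 to 10 kb away and 639 were 10 kb or more away, 22 of these 100 kb or more. The rule used the DHS lists, so these gaps are given as a description, without a test. A DHS within 10 kb was likewise found for 74.3% of dexamethasone-only and 66.4% of vehicle-only closed peaks. The share for the genome at large was not computed.

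The rule's edge was sharp in base pairs. Members just inside it were chr2:179905597-179905747 with a gap of 1 bp, chr15:75472436-75472590 and chr7:148526935-148527086 with 2 bp each, chr9:69167358-69167514 with 3 bp and chr10:126365762-126365917 with 5 bp. Stable peaks just outside it were chr11:30714729-30714879 and chr11:51573377-51573535, each sharing 2 bp with a DHS, chr10:7783317-7783467 sharing 4 bp, chr4:97522046-97522203 sharing 6 bp and chr5:151396644-151396794 sharing 9 bp. No stable peak directly abutted a DHS, so membership is the same whether positions count from 0 or from 1.

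**Figure D2:**
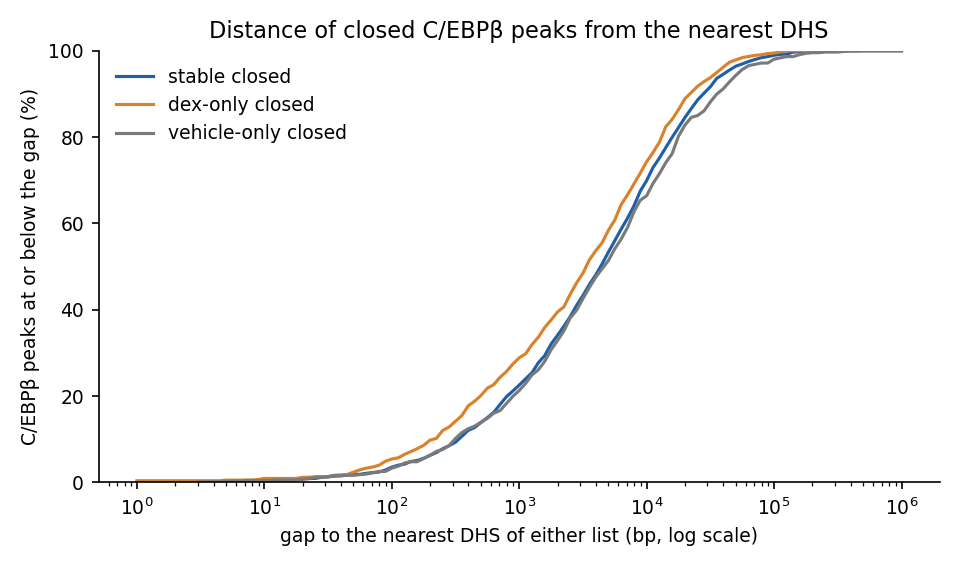
Cumulative share of closed C/EBPβ peaks (%, vertical axis) against the gap to the nearest DHS of either list (bp, log scale) for stable (blue), dexamethasone-only (orange) and vehicle-only (grey) peaks. The curves reach 50% at medians of 4316, 3365 and 4709 bp.

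The remote end held isolated peaks. The member farthest from any DHS, chr1:114348324-114348477, was 495675 bp from one in the dexamethasone list and 586400 bp from one in the vehicle list. The next were chr1:30640829-30640992 at 226309 bp, chr15:64754690-64754844 at 201539 bp, chr9:100154559-100154714 at 200058 bp and chr2:66423795-66423946 at 194829 bp. None of the 5 overlapped a GR peak, and each one's nearest C/EBPβ neighbour was an open peak more than 200000 bp away. These 5 were picked for their distance from DHS, so any open neighbour had to lie far off. With 96.7% of GR peaks in a DHS and a GR share of 0.659% over all members, the lack of GR here is little information.

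The median gap of the members was 5284 bp in the dexamethasone DHS list and 5458 bp in the vehicle list, and the nearest DHS was closer in the dexamethasone list for 1103 members, closer in the vehicle list for 993 and equally far for 29. A DHS within 1 kb stood in both lists for 349 members, in the dexamethasone list only for 61 and in the vehicle list only for 69. The longer dexamethasone list by itself favours a closer DHS there. For dexamethasone-only closed peaks the nearest DHS was closer in the dexamethasone list in 57.9% of cases, against 51.9% for members and 46.3% for vehicle-only closed peaks. The nearest DHS of a member, taken from either list, was shared between the lists in 69.4% of cases. It was found after dexamethasone only in 17.4% and after vehicle only in 13.2%. For dexamethasone-only and vehicle-only closed peaks it was shared in 70.2% and 68.7%. Of all DHS, 76.2% of the dexamethasone and 85.1% of the vehicle list were shared. Each of these leaves out the other list's own sites, so they are no like measure for the 69.4%. The nearest DHS of a member held a C/EBPβ peak of its own in 36.1% of cases and a GR peak in 15.5%. Of all DHS, 33.8% of the dexamethasone and 36.4% of the vehicle list held a C/EBPβ peak, and 16.7% and 15.4% held a GR peak. The nearest DHS had a median width of 604 bp, against 591 bp for all DHS of the dexamethasone list and 596 bp for those of the vehicle list.

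Closed stable peaks had a C/EBPβ neighbour nearby less often than open ones. Another C/EBPβ peak of the merged set lay within 10 kb, centre to centre, of 969 of the 2125 closed peaks (45.6%, 43.5 to 47.7) and of 11234 of the 18188 open ones (61.8%, 61.1 to 62.5), with 60.1% over all stable peaks. The odds ratio was 0.519 (0.474 to 0.568; two-sided Fisher's exact test, p = 5.85e-46, adjusted p = 2.05e-45), and the closed share was lower on 20 of 20 chromosomes. The median distance to the nearest C/EBPβ centre was 12148 bp for closed and 5678 bp for open peaks. Among stable peaks without GR, a comparison added after seeing the data, the difference was smaller. There 45.4% of closed and 56.9% of open peaks had a neighbour within 10 kb (odds ratio 0.628). Neighbours came from the C/EBPβ lists that the rule used, and 87.2% of the merged set lay in DHS. A lower share outside DHS is therefore partly built into the comparison. Of dexamethasone-only and vehicle-only closed peaks, 49.1% and 41.5% had a neighbour within 10 kb. Many neighbours of an open peak sit in the same DHS, which a closed peak cannot have. With such neighbours left out, a choice made with the values known, 56.4% of open peaks had one within 10 kb (odds ratio 0.648). Within 1 kb the order then turned, with 154 closed peaks (7.25%) and 857 open peaks (4.71%) having a neighbour (odds ratio 1.58; Fisher p = 1.45e-06, adjusted p = 2.9e-06 over 2 tests). Leaving out the peak's own DHS also removes part of the 1 kb around an open peak, so that reversal is partly built in.

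When a member had such a neighbour within 10 kb, the nearest was open in 806 of 969 cases (83.2%, 80.7 to 85.4), and 24246 of the 27793 peaks of the merged set (87.2%) were open. The neighbour was a stable open peak in 603 of 969 cases (62.2%, 59.1 to 65.2), an open dexamethasone-only peak in 151 and an open vehicle-only peak in 52. It was another stable closed peak in 103 (10.6%, 8.84 to 12.7). For comparison, the 27793 peaks of the merged set held 18188 stable open, 4324 open dexamethasone-only, 1734 open vehicle-only and 2125 stable closed peaks. For stable open peaks the nearest neighbour within 10 kb was a stable closed peak in 539 of 11234 cases (4.8%, 4.42 to 5.21), a difference that was not tested, because the classes of neighbours follow from the rule. By zones of distance from a DHS, another C/EBPβ peak lay within 10 kb of 338 of the 479 members less than 1 kb from a DHS (70.6%), of 594 of the 1007 at 1 to 10 kb (59%) and of 37 of the 639 farther away (5.79%). Most C/EBPβ peaks lie in DHS, so a low share far from DHS is largely fixed by the zones themselves, and dexamethasone-only and vehicle-only closed peaks 10 kb or more from a DHS had 6.19% and 4.91%.

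GR in the neighbourhood followed a similar course over short distances. Among peaks without a GR overlap, a GR centre lay within 10 kb of 504 of 2111 closed peaks (23.9%, 22.1 to 25.7) and of 4021 of 12341 open ones (32.6%, 31.8 to 33.4), with 31.3% over all stable peaks without GR. The odds ratio was 0.649 (0.583 to 0.722; two-sided Fisher's exact test, p = 4.71e-16, adjusted p = 1.1e-15), and the closed share was lower on 20 of 20 chromosomes. GR peaks lie mostly in DHS, so a lower share for closed peaks is partly built in here too. Dexamethasone-only and vehicle-only closed peaks without GR had 29.3% and 18.1%. Within 1 kb the shares were 2.18% of closed and 9.15% of open peaks. They were nearly level at 50 kb (59.2% and 60.7%), and at 100 kb the closed share was the higher one, 76.8% against 73.6% (odds ratio 1.19; Fisher p = 0.00198, adjusted p = 0.00396 over 2 tests). With GR peaks in the open peak's own DHS left out, likewise chosen with the values known, the shares within 10 kb were 23.9% and 28.4% (odds ratio 0.792), and within 1 kb they were 2.18% and 1.66%, a difference that missed the threshold (p = 0.104 by Fisher's exact test, and the same after adjustment). Members less than 1 kb from a DHS had a GR centre within 10 kb in 41.1% of cases without overlap, those 1 to 10 kb away in 30.4% and those farther away in 0.939% (6 of 639). Since nearly all GR peaks lie in DHS, the last share is largely fixed by the zone, and it was 1.57% and 0.446% for dexamethasone-only and vehicle-only closed peaks there. A GR overlap was found at 4 of 479, 10 of 1007 and 0 of 639 members in these zones.

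**Figure D3:**
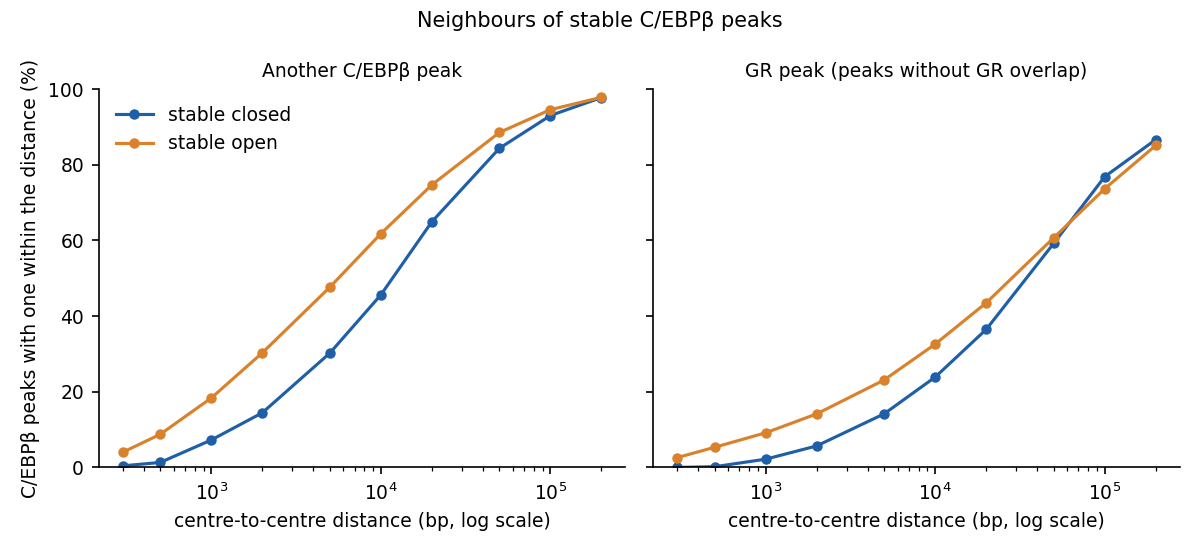
Share of stable C/EBPβ peaks (%, vertical axis) with another C/EBPβ peak (left) or, among peaks without GR overlap, a GR peak (right) within a given centre-to-centre distance (bp, log scale), closed in blue and open in orange. At 10 kb the values are 45.6% and 61.8% on the left and 23.9% and 32.6% on the right, and the right-hand curves cross between 50 and 100 kb.

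Closed stable intervals were slightly narrower than open ones. Every C/EBPβ peak found in 1 list only was exactly 150 bp wide, while stable intervals were 150 bp or wider, and how the lists were merged is not given in the sources used here. A width above 150 bp was found at 1716 of the 2125 closed peaks (80.8%, 79 to 82.4) and at 15649 of the 18188 open ones (86%, 85.5 to 86.5), with 85.5% over all stable peaks. The odds ratio was 0.681 (0.606 to 0.764; two-sided Fisher's exact test, p = 2.47e-10, adjusted p = 4.32e-10), and the closed share was lower on 18 of 20 chromosomes. Widths had a median of 154 bp for closed (quartiles 151 and 159 bp) and 155 bp for open peaks (quartiles 152 and 161 bp), so the classes overlapped almost wholly. They parted in the tail: 2 closed peaks (0.0941%) and 185 open ones (1.02%) were wider than 200 bp. A wider interval touches a DHS more easily, and with a peak called open only if its centre lay in a DHS the odds ratio was 0.666. Among stable peaks without GR, likewise added after seeing the data, the difference was smaller. A width above 150 bp was then found at 80.7% of closed and 84% of open peaks (odds ratio 0.796). Among members, width varied little with distance from DHS, at 78.5%, 81.2% and 81.7% above 150 bp in the 3 zones given above.

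The widest member, chr11:3025507-3025742, measured 235 bp and lay 1015 bp from a DHS, with another stable closed peak 4840.5 bp away. The next were chr2:181327630-181327831 (201 bp), chr5:115429132-115429330 and chr7:140654701-140654899 (198 bp each) and chr19:3744081-3744275 (194 bp). None of these 5 overlapped a GR peak, which is little information at a share of 0.659% over all members. The chromosome 7 interval had a DHS 7226 bp away in the dexamethasone list, while the nearest in the vehicle list was 146932 bp away.

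**Figure D4:**
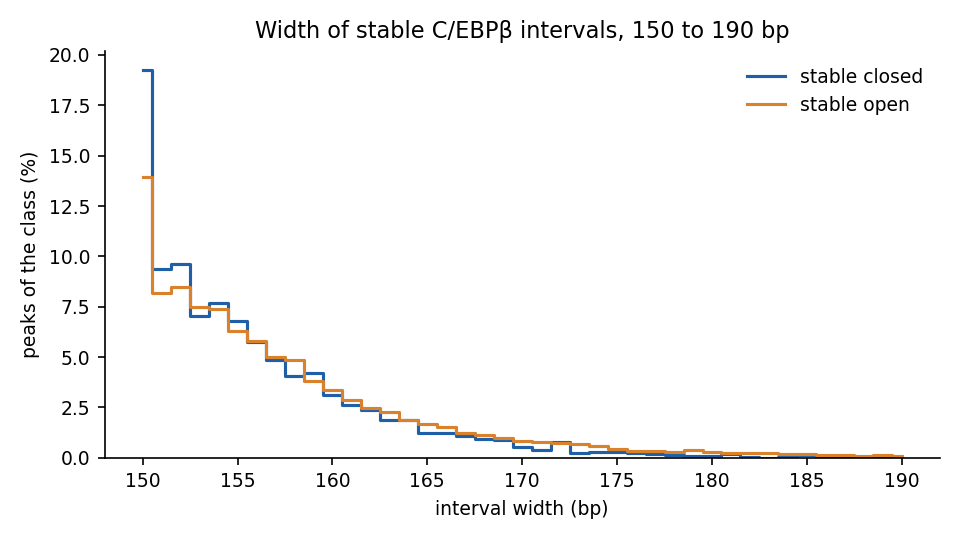
Share of stable C/EBPβ intervals (%, vertical axis) at each width from 150 to 190 bp, closed in blue and open in orange. At exactly 150 bp stand 19.2% of closed and 13.96% of open intervals.

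Closed peaks were spread over all chromosomes at similar shares. They made up between 7.72% (chromosome X, 20 of 259) and 12.8% (chromosome 14, 100 of 780) of the stable peaks of a chromosome, Y not counted. Chromosomes 17 (12.7%) and 11 (12%) followed chromosome 14, and chromosomes 3 (8.74%) and 13 (8.78%) had the lowest autosomal shares. The 95% Wilson intervals of chromosome 14 (10.7 to 15.4) and chromosome 3 (7.24 to 10.5) did not meet. These were picked by their values as the highest and lowest autosomes, which makes such a gap easier to find. The spread over chromosomes was not tested. Chromosome X held 0.941% of closed and 1.31% of open stable peaks, with 1.28% of all stable peaks, and the odds ratio of 0.714 (0.451 to 1.13) did not pass the threshold (p = 0.183 by Fisher's exact test, adjusted p = 0.183). Against open stable peaks without GR, a comparison added after seeing the data, it was 0.587 (Fisher p = 0.0202).

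**Figure D5:**
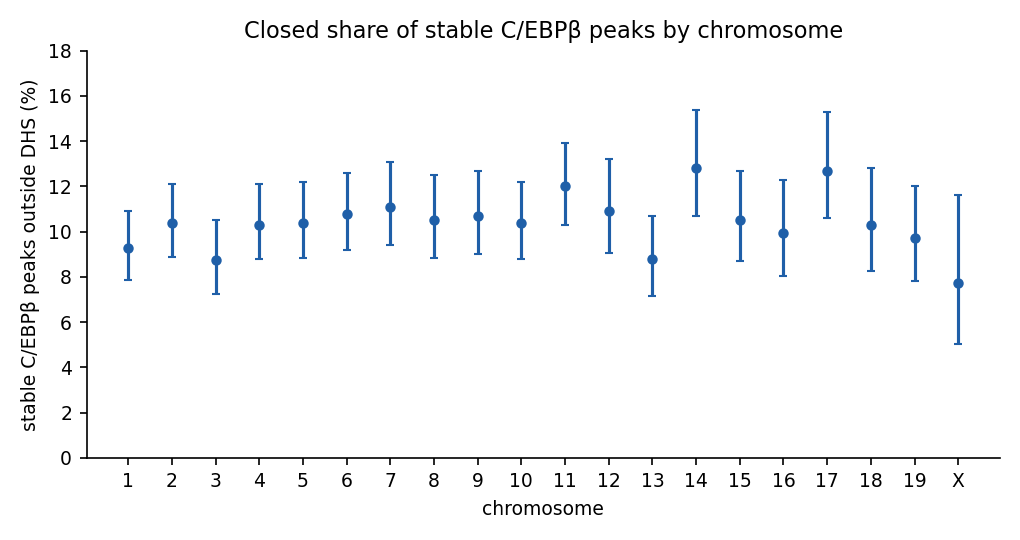
Share of stable C/EBPβ peaks that lay outside DHS (%, vertical axis) on each chromosome, with 95% Wilson intervals as bars. Points run between 7.72% on X and 12.8% on chromosome 14.

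Members were counted in windows of 1 Mb along the chromosomes. Of 1097 windows that held any, 542 held exactly 1 member and 555 held 2 or more. Members alone in their window made up 25.5% of all members. The 50 windows with 5 or more together contained 13.6%. Whether members cluster was not tested, and these counts were not made for stable open peaks. The window with most, chr7:52000000-53000000, had 9 members beside 24 stable open peaks, 9 GR peaks and 68 dexamethasone and 65 vehicle DHS. Those with 8 members each were chr11:120000000-121000000, chr15:59000000-60000000, chr17:46000000-47000000 and chr2:167000000-168000000. These 4 windows held 34, 33, 20 and 25 stable open peaks and 25, 18, 11 and 35 GR peaks in the same order. The windows held 48 to 98 DHS per list. None of their members overlapped a GR peak, which at a share of 0.659% over all members is little information.

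Some members lay close to each other. Neighbouring members lay within 1 kb of each other in 12 pairs and within 10 kb in 77. Such pairs were not counted for other classes of peaks, and whether these counts are low or high was not tested. The closest pair, chr10:80448376-80448526 and chr10:80448598-80448748, had centres 222 bp apart and lay 2610 and 2832 bp from a DHS. The next pairs began with chr1:121196801-121196951, chr11:102877339-102877491, chr3:87599360-87599512 and chr11:115637735-115637900 and had centres 245.5, 529, 564.5 and 683 bp apart.

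A closed position was less common among stable C/EBPβ peaks than among peaks of 1 list. It was found for 10.5% of stable peaks, 14.9% of dexamethasone-only peaks (755 of 5079, 13.9 to 15.9) and 27.8% of vehicle-only peaks (667 of 2401, 26 to 29.6). Closed peaks of the dexamethasone list only lay somewhat nearer to DHS than members, with a median gap of 3365 bp and 28.9% within 1 kb, against 4316 bp and 22.5% for members. Vehicle-only closed peaks were close to the members, with 4709 bp and 21.3%. These values restate the choice of members and have no test.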

How the data were processed

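The authors' deposited values are positions only: chromosome, start, end and a running identifier, with no score or count. Per the submitters' processing notes, CASAVA 1.8 and build mm9 were used. Neither the peak caller, nor its threshold, nor any pooling of samples is given in the sources used here. Shared identifiers had the same coordinates in both C/EBPβ lists in all 20313 cases. Intervals were treated as half-open, and 0 per-sample columns were left unused.

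An overlap needed 1 bp or more. Each share carries a 95% Wilson interval, and a count of 0 is given with the limit of 3 counts. Intervals and limits cover counting error only. Classes were compared by Fisher's exact test (two-sided, 7 tests adjusted by Benjamini-Hochberg, threshold 0.05, adjusted within each alternative too). Peaks on a chromosome are not independent, so p-values are too small to the extent that neighbours share their state.

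The members, comparisons and the rule for named regions were chosen with earlier results of these data known. The rule took the 5 widest members, the 5 farthest from a DHS, the 5 just inside and outside the DHS rule, the 5 with the nearest GR centre, the 5 fullest 1-Mb windows and the 5 closest pairs. Pair and GR counts beyond these were described after their values were seen. Genes and sequences are not given, because the gene and promoter tables at hand are of GRCm38.p6 and positions were not converted. Alternatives changed the definition of open, the DHS list, the peak width, the chromosomes, the GR overlap and the distances. The code was tested on simulated data, and the counts of members and of members with GR equalled those of bedtools 2.31.1. The scripts ran under Python 3.11.15 with scipy 1.17.1, numpy 2.4.6, matplotlib 3.10.9 and pandas 2.3.3. Adenovirus, polymerase II and input samples were not analysed here.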

Additional observations from a re-analysis of the deposited data

How the results depend on the processing

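Over 70 alternatives to the 7 comparisons, 63 kept the direction and the side of the threshold, 3 lost the call, 1 gained it and 3 reversed. The alternatives are not independent of each other. Calling a peak open by its centre or by 50% of its length gave the same counts in all 7 comparisons. The 63 also include chromosome X alternatives, which stayed above the threshold. The odds ratio of a GR overlap in closed against open stable peaks was 0.116 when closed meant outside the vehicle DHS list alone (171 of 3139 and 5690 of 17174 peaks), where closed peaks may lie in a dexamethasone DHS. In the other alternatives it lay between 0.0119 and 0.0154. The difference in GR overlap between stable and vehicle-only closed peaks lost its call when a DHS within 500 bp made a peak open (0.546 percentage points), when closed meant outside the dexamethasone DHS list alone (0.453 points) and on autosomes only (0.665 points). The chromosome X odds ratio passed the threshold against open peaks without GR (0.587). The odds ratio of a GR centre nearby reversed within 100 kb (1.19), and within 1 kb once GR peaks in the peak's own DHS were left out (1.32). That of another C/EBPβ peak reversed within 1 kb with the same neighbours left out (1.58). The cause of these reversals was not tested. Leaving out neighbours in a peak's own DHS takes away part of the space around open peaks, and it was not done within 100 kb. A Mantel-Haenszel estimate over chromosomes was not run for vehicle-only closed peaks, which held 0 GR overlaps. No paired analysis was possible because the lists hold no sample or replicate column, and for the same reason no replicate could be left out. Peak heights and depth are unknown, so weak and strong C/EBPβ binding could not be separated.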
